A study of Homo sapiens with 5 samples.

Results

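The 53 genes described here are 12 genes of interferon signalling and 41 genes that interferon induces, taken by symbol from the 46427 genes of the deposited expression table. All 53 were found in the table, each once. Total RNA was sequenced from U87 MG cells, a long-established line grown from a human glioblastoma, in 5 libraries. The 2 control libraries hold untreated cells and are numbered 2 and 3 in their titles (u87_control). The other 3 libraries, titled f2n11_csc and numbered 1 to 3, came from cells of the same line sorted as CD133 positive and are called sorted libraries here. The labels do not explain the prefix f2n11, which every sorted library and no control carries. Any difference it stands for cannot be told apart from the sort. CD133 is a surface protein used to enrich for stem-like glioma cells, and the labels name these cells cancer stem cells. No cells that went through the sort without being positive are among the samples, so an effect of sorting cannot be told apart from one of CD133. The labels give no interferon treatment. Whether the libraries came from separate cultures is not stated, so the p-values rest on a spread between libraries that could be technical. In bulk RNA, fewer cells with a transcript and less of it in each cell cannot be told apart.

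Interferons are secreted proteins, and cells make those of type I when they sense viral or misplaced nucleic acid. Type I interferons bind a receptor that contains IFNAR1, and interferon gamma binds a receptor built from IFNGR1 and IFNGR2. Janus kinases on the receptor tails then activate STAT proteins, and a complex that contains STAT2 and IRF9 binds a promoter element called the interferon-stimulated response element (ISRE). The induced genes encode RNA sensors, nucleases, GTPases and ubiquitin-like modifiers that restrict viruses, and several of them also have a basal level without interferon. Tumour lines differ in how much of this programme they keep.

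The response element itself was looked for in the promoters of the 53 genes. Members were taken by symbol and not by sequence, but the targets are genes that interferon induces. That choice favours matches among targets, so their share is a description and no test. The RefSeq promoter table (GRCh38.p14) held windows of 300 bases, from 250 before to 50 after a gene's start, for 41 of the 53 members. The motif searched was GAAA, any 2 bases and GAAA, on both strands, so that it reads TTTC, any 2 bases and TTTC on the other strand, and matches may overlap. Of 32 target members with a window, 24 (75.0%) held a match, against 1 of 9 signalling members (SOCS1) and 1195 of the 27305 genes in the table (4.38%). The element of interferon gamma signalling was searched as TTC, any 3 bases and GAA, which is its own reverse complement. It was found in 9 of the 32 target members, in 2 of the 9 signalling members (IRF1 and IRF9) and in 9.38% of all genes in the table. A match describes the letters and is not a measured binding site.

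Stretches with the motif are shown for the member that rose (EPSTI1), the member that fell (HERC5), 4 members whose groups lay apart and ISG15, so that promoters of genes on either side can be compared. They are written in the direction of transcription, before the gene's start, with every match in capitals.
EPSTI1: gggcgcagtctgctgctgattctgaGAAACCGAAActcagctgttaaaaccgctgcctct
IFI6: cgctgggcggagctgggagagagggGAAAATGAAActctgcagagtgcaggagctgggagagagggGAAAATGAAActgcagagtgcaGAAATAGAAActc
ISG15: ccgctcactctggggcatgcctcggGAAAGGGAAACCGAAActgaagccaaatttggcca
IFIT3: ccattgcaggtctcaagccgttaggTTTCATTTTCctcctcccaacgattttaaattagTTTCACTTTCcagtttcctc
IFIT5: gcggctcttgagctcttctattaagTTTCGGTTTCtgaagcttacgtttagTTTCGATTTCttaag
PARP14: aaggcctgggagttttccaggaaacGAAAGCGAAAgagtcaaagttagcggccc
HERC5: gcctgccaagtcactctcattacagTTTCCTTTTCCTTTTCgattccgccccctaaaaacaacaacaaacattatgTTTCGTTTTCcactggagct
The stretches lie at chr13:42992257-42992316 (-), chr1:27672273-27672373 (-), chr1:1013359-1013418 (+), chr10:89327816-89327894 (+), chr10:89414498-89414563 (+), chr3:122680785-122680838 (+) and chr4:88456969-88457064 (+) in that order. The HERC5 stretch holds 3 matches, of which the first overlaps the next, that of IFI6 holds 3, that of ISG15 holds 2 that overlap, those of IFIT3 and IFIT5 hold 2 each, and those of EPSTI1 and PARP14 hold 1. The first match begins 50 bases before the start in EPSTI1 and 125 bases before it in HERC5. Promoters with the same motif belong to a gene that was higher and to a gene that was lower in the sorted libraries.

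The libraries held 17716823 to 29841238 counts. The share of counts on 7SL RNA genes was 5.71 to 6.29% for the controls, against 10.9, 12.01 and 24.4% for sorted libraries 1, 2 and 3, so that sorted library 3 stood apart. Values are given as CPM, counts scaled to a common library total, after correction with TMM factors, which were 1.16 and 1.22 in controls and 1.01, 0.999 and 0.697 in sorted libraries 1, 2 and 3. Among markers fixed for the line and for other cells, VIM and CD44 were abundant, GFAP and AQP4 were at or near 0, and the 8 lymphocyte markers had 0 counts in all libraries. Of the other astroglial markers, SLC1A3 had 48.9 and 41.9 CPM in controls against 39.3, 35.9 and 33.8 CPM in sorted libraries. SOX9 had 3.68 and 2.25 CPM in controls against 6.85, 6.30 and 8.39 CPM in sorted libraries, and the rest had at most 2.04 CPM. The 12 macrophage and microglia markers summed to 104 to 148 CPM in controls and 245 to 283 CPM in sorted libraries, nearly all of it from CD68. CD68, a lysosomal gene, had 141 and 100.1 CPM in controls against 266, 273 and 242 CPM in sorted libraries, while AIF1, CX3CR1 and TYROBP were at 0 throughout and PTPRC had 0 counts in all but sorted library 3, with 0.227 CPM. ITGAM had 0 counts in both controls and 8, 18 and 13 counts in sorted libraries 1, 2 and 3 (adjusted p = 0.0756 by edgeR and 0.00414 by DESeq2). CSF1R had 6.5 and 3.09 CPM in controls against 6.63, 7.802 and 0 CPM in sorted libraries, and the other macrophage markers had at most 20 counts. Of the 4 plasmacytoid dendritic cell markers, all but TCF4 were at 0, and that gene had 53.5 and 51.2 CPM in controls against 27.4, 19.3 and 20.3 CPM in sorted libraries. Summed CPM of 6 endothelial markers was 10.98 to 11.3 in controls and 8.09 to 9.27 in sorted libraries, and that of 6 fibroblast and pericyte markers 82.7 to 84.1 and 78.6 to 108. These sums hide markers that went opposite ways. LUM had 25.97 and 27.5 CPM in controls against 6.74, 5.38 and 10.6 CPM in sorted libraries (adjusted p = 0.0378 by edgeR). PDGFRB had 18.2 and 20.4 CPM in controls against 60.4, 70.7 and 35.9 CPM in sorted libraries (adjusted p = 0.0564 by edgeR). RGS5 and KDR lay below both controls in every sorted library. TIE1 had 2 and 0 counts in controls against 0, 74 and 24 counts in sorted libraries. The 8 astroglial markers summed to 46.01 to 54.5 and 44.9 to 49.6 CPM, so that the groups overlapped, while with library size alone they did not (56.3 to 63.0 and 32.7 to 50.2). The 6 mesenchymal line markers summed to 8489 to 9198 and 16134 to 21419 CPM. PROM1, which encodes CD133, had 12 and 0 counts in controls against 7, 0 and 0 counts in sorted libraries, at most 0.3901 CPM. Its RNA was thus not seen to be higher in the sorted libraries (log2 fold change -0.44 ± 2.21 SE, adjusted p = 0.929 by edgeR), at counts too low to compare the groups. The part of these differences in the results below was not tested.

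Of the 53 members, 51 passed the filter on low counts. EPSTI1 was the 1 member that rose and HERC5 the 1 that fell (edgeR's quasi-likelihood test, adjusted p under 0.05), and the other 49 tested members did not pass. That is 3.92% of the tested members, against 4.61% of all 16304 genes tested (2.20% higher and 2.40% lower), so the share of members was close to the background. The median log2 fold change was 0.31 over the 12 signalling members and 0.23 over the 39 tested targets, against -0.0017 over all genes tested. With library size alone as scaling the medians were -0.12 and -0.11 against -0.40 over all genes, and on log2(TPM + 1) they were -0.51 and -0.50 against -0.77. Without adjustment, 11 members were higher (21.6%, against 12.2% of all genes) and 6 lower (11.8%, against 13.6%) at p under 0.05.

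**Figure D1:**
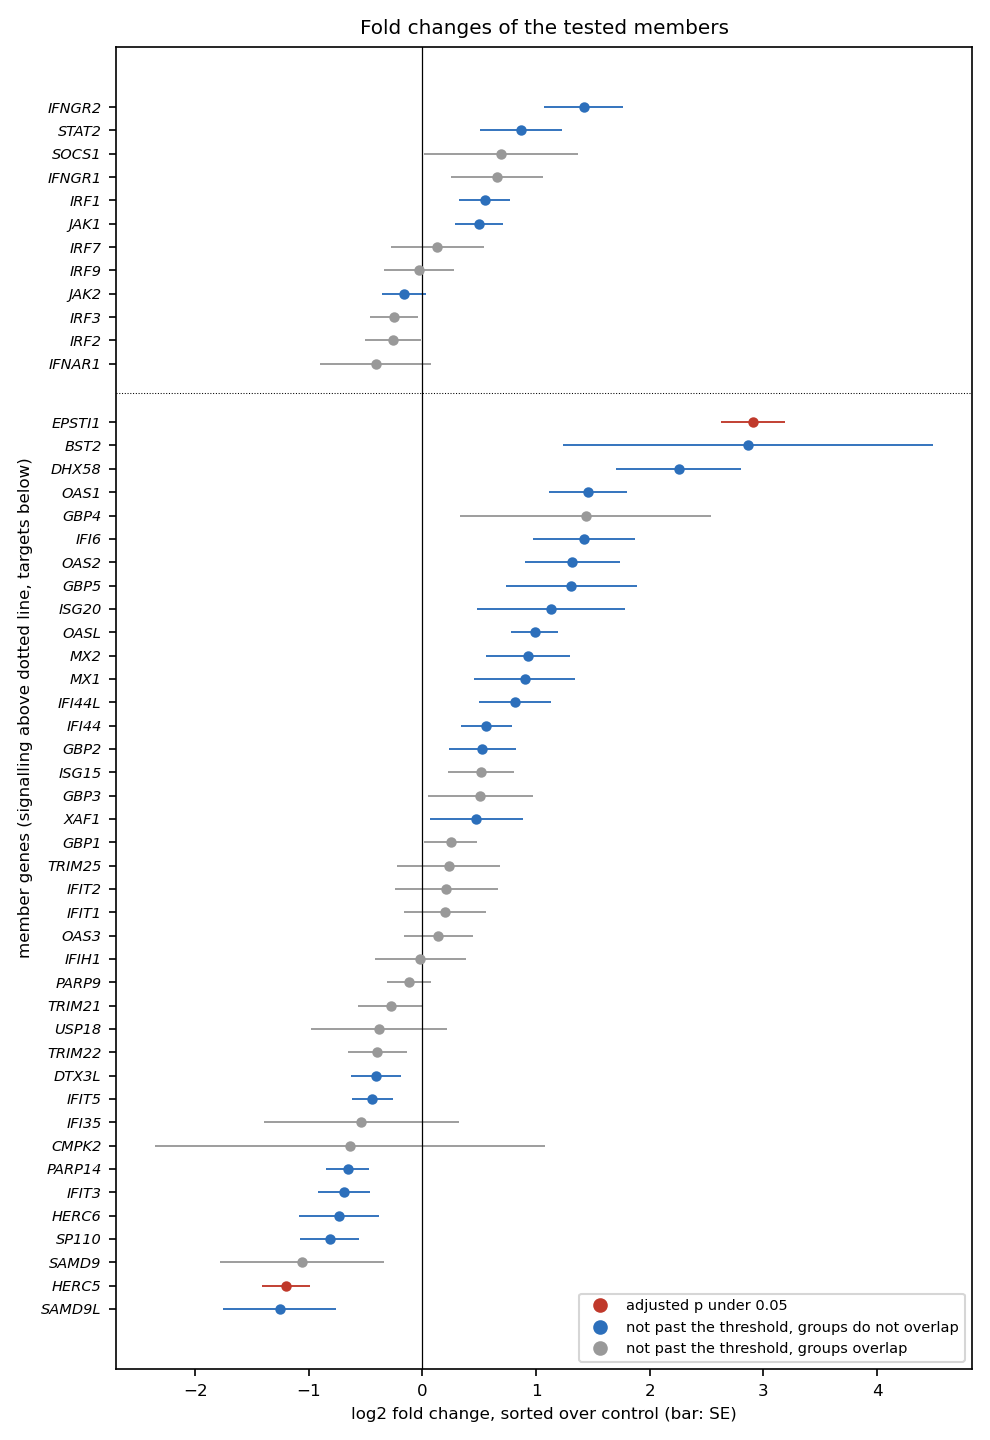
Log2 fold change of each of the 51 tested members (sorted over control, horizontal axis, bar: SE), with the 12 signalling members above the dotted line and 39 targets below, ordered by size. EPSTI1 at 2.91 and HERC5 at -1.20 are past the threshold (red), and blue marks members whose libraries do not overlap between groups.

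All 21 interferon genes of the list (the alpha genes, IFNB1, IFNW1, IFNE, IFNK, IFNG and the lambda genes IFNL1, IFNL2 and IFNL3) had 0 counts in every library, which allows up to 3 counts, or 0.0822 to 0.227 CPM. Interferon protein in the medium was not measured.

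Of the 3 receptor chains, IFNGR2, the signalling chain for interferon gamma (gene 3460, chromosome 21, 33402882 to 33437516, GRCh38.p14), had 19.7 and 19.99 CPM in controls 2 and 3 and 46.03, 36.7 and 76.5 CPM in sorted libraries 1, 2 and 3 (log2 fold change 1.42 ± 0.35 SE, adjusted p = 0.0729). Every sorted library lay above both controls, and sorted library 3 was the highest. The test missed the threshold with all libraries and passed it without sorted library 3, with a log2 fold change of 1.06 (adjusted p = 0.00182). The fit without that library called 15.4% of all genes higher and 16.8% lower. IFNGR1, the ligand-binding chain, had 24.5 and 27.7 CPM in controls against 31.3, 27.5 and 64.97 CPM in sorted libraries (log2 fold change 0.66 ± 0.41 SE, adjusted p = 0.362), and its groups overlapped at sorted library 2. IFNAR1, a chain of the type I receptor that lies 43017 bases from IFNGR2 on chromosome 21, had 37.2 and 30.8 CPM in controls against 37.3, 28.7 and 10.6 CPM in sorted libraries (log2 fold change -0.41 ± 0.49 SE, adjusted p = 0.656). Sorted library 1 was level with control 2, sorted library 2 was close below control 3, and sorted library 3 was the lowest.

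JAK1, the kinase that serves the receptors of all interferon types, was the most abundant signalling member, with a mean of 66.96 TPM (a level corrected for transcript length) in controls and 49.6 TPM in sorted libraries. It had 228 and 216 CPM in controls 2 and 3 and 291, 279 and 369.8 CPM in sorted libraries 1, 2 and 3 (log2 fold change 0.50 ± 0.21 SE, adjusted p = 0.204). The sorted libraries lay above the controls in CPM but their mean was lower in TPM, so the direction turned with the scale. JAK2, which serves the interferon gamma receptor, had 21.99 and 22.3 CPM in controls against 20.1, 21.2 and 18.1 CPM in sorted libraries (log2 fold change -0.16 ± 0.20 SE, adjusted p = 0.663). The groups did not overlap, although the gap between control 2 and sorted library 2 was smaller than the spread of the sorted libraries.

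Among transcription factors, STAT2 (gene 6773, chromosome 12, 56341597 to 56360107) had 62.6 and 64.2 CPM in controls 2 and 3 and 93.2, 80.6 and 174 CPM in sorted libraries 1, 2 and 3 (log2 fold change 0.87 ± 0.36 SE, adjusted p = 0.196). Sorted library 3 held more than the other sorted libraries, and without it the log2 fold change was 0.45 (adjusted p = 0.0197). On log2(TPM + 1) the sign turned, to -0.16. IRF9, the DNA-binding partner of STAT2, had 9.05 and 9.26 CPM in controls against 6.85, 8.17 and 11.9 CPM in sorted libraries (log2 fold change -0.030 ± 0.31 SE, adjusted p = 0.966), with the groups overlapping. IRF1, an activator induced by interferon gamma, had 15.6 and 17.03 CPM in controls against 23.5, 20.4 and 27.7 CPM in sorted libraries (log2 fold change 0.55 ± 0.23 SE, adjusted p = 0.192), and its groups did not overlap in CPM but the sign turned on log2(TPM + 1), to -0.54. IRF2, which competes with IRF1 at the same sites, stood at a log2 change of -0.26, and IRF3 and IRF7, which switch on interferon genes after sensing, -0.25 and 0.13, all with overlapping groups and adjusted p of 0.508 to 0.884. SOCS1, a feedback inhibitor of the Janus kinases, stayed low at 0.979 and 0.712 CPM in controls against 0.7802, 2.09 and 1.21 CPM in sorted libraries (log2 fold change 0.69 ± 0.68 SE, adjusted p = 0.574).

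Of the 12 signalling members, 0 passed edgeR's test in either direction. At an unadjusted p under 0.05, 2 were higher and 0 lower, against 12.2% and 13.6% of all genes. DESeq2 called 1 higher (IFNGR2) and 0 lower, against 7.51% and 7.34% of all genes, and limma-voom 0 and 0. Sorted library 3 held the highest of the 3 sorted values for 9 of the 12 (75.0%), against 39.02% of all genes tested. With library size alone it did so for 4 of the 12, against 19.1% of all genes. By level in controls, the order of signalling members ran from JAK1 over IRF3 (28.96 TPM) and STAT2 (22.3 TPM) to IRF7 (2.31 TPM) and SOCS1 (1.04 TPM).

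**Figure D2:**
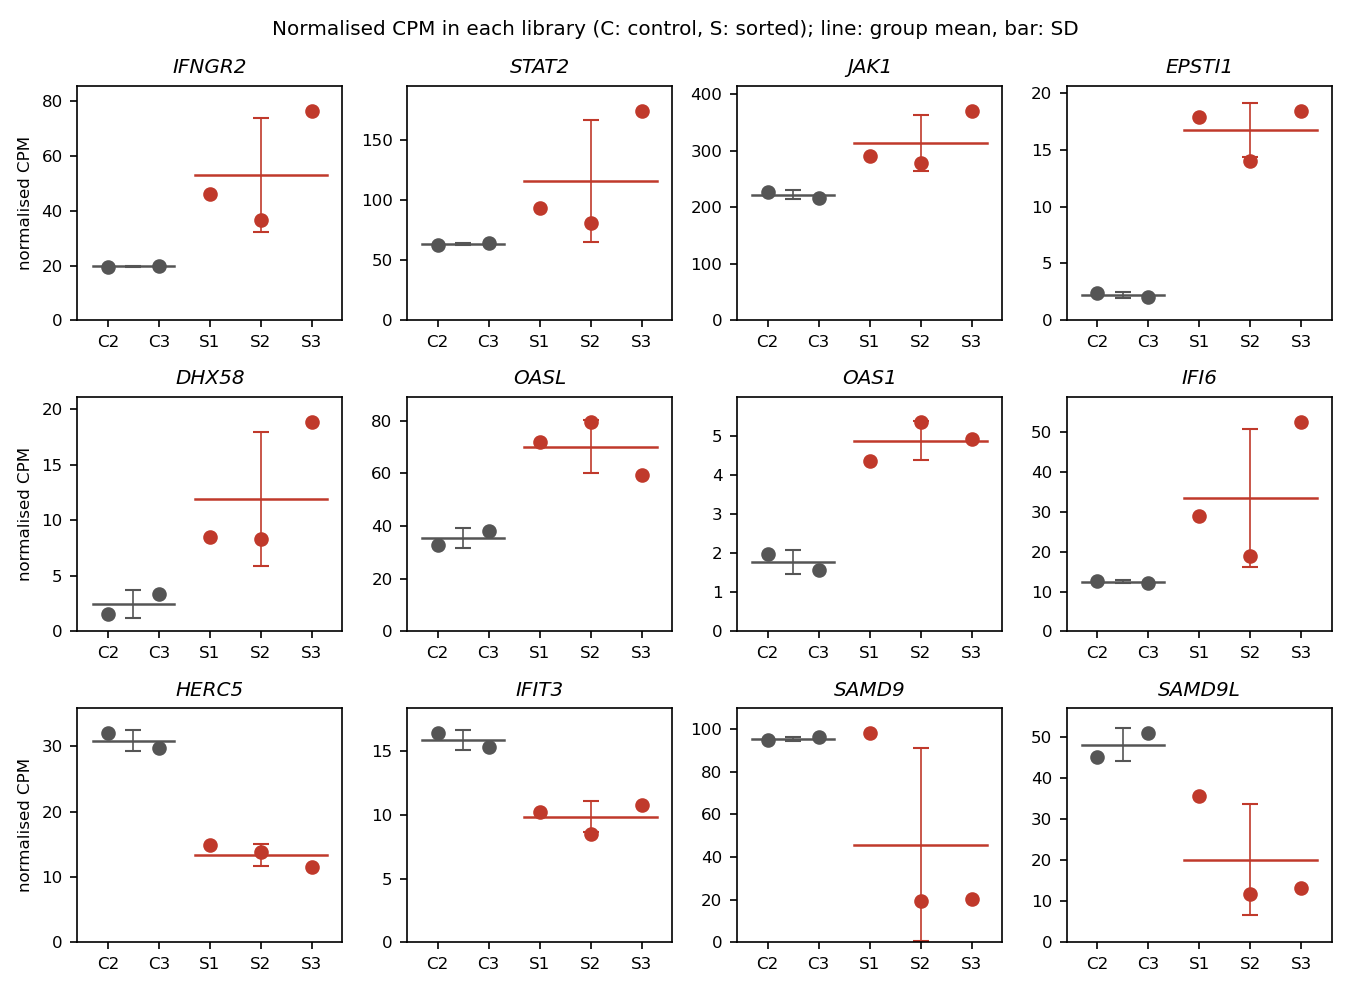
Normalised CPM of 12 members in each library (C2 and C3, controls; S1, S2 and S3, sorted libraries), with the group mean as a line and the SD as a bar (n = 2 and 3). EPSTI1 and HERC5 separate the groups with little spread, IFNGR2, STAT2, DHX58 and IFI6 are highest in sorted library 3, and SAMD9 is as high in sorted library 1 as in the controls.

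Among targets the largest change was that of EPSTI1, a gene of epithelial and stromal interaction that interferon also induces (gene 94240, chromosome 13, 42886388 to 42992241). It had 2.404 and 2.05 CPM in controls 2 and 3 and 17.8, 14.03 and 18.4 CPM in sorted libraries 1, 2 and 3. The sorted libraries lay close together at more than 5 times the higher control. The log2 fold change was 2.91 ± 0.28 (SE), a 7.49-fold rise with an adjusted p of 0.0147. It stayed positive under every alternative tried, from 1.34 to 3.03. Without control 2, control 3, sorted library 1 or sorted library 2 its adjusted p was 0.220, 0.217, 0.0696 and 0.0599, in fits that called 0 to 12 of all genes higher. Without sorted library 3 it was 2.1e-04. On log2(TPM + 1) and log2(TPM + 0.1) it was 0.0581 and 0.103.

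HERC5, the main ligase that attaches ISG15 to other proteins in human cells (gene 51191, chromosome 4, 88457119 to 88506163), was the member that fell. It had 32 and 29.7 CPM in controls 2 and 3 and 14.8, 13.8 and 11.5 CPM in sorted libraries 1, 2 and 3. All sorted libraries lay below both controls by far more than the spread within either group. The log2 fold change was -1.20 ± 0.21 (SE), 2.303-fold lower with an adjusted p of 0.0364. The sign held in every alternative, from -2.15 to -1.11. The call was lost without control 2, control 3, sorted library 1 or sorted library 2 (adjusted p of 0.0910 to 0.369). It was also lost in 3 of 8 other alternatives, among them library size alone (0.0632) and log2(TPM + 0.1) (0.103).

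The other members of the ISG15 system did not pass edgeR's test. HERC6, a relative of HERC5 that lies 14021 bases away on chromosome 4, had 12.4 and 13.6 CPM in controls against 9.53, 9.23 and 4.61 CPM in sorted libraries (log2 fold change -0.73 ± 0.36 SE, adjusted p = 0.256), with all sorted libraries below the controls. USP18, the protease that removes ISG15 and also restrains the type I receptor, had 7.84 and 8.65 CPM in controls against 3.62, 3.37 and 12.2 CPM in sorted libraries (log2 fold change -0.38 ± 0.60 SE, adjusted p = 0.743). Sorted libraries 1 and 2 were below the controls while sorted library 3 was above them, and without that library the log2 fold change was -1.24 (adjusted p = 0.006296). ISG15 itself, the ubiquitin-like modifier, had 11.04 and 14.9 CPM in controls against 13.8, 19.7 and 22.2 CPM in sorted libraries (log2 fold change 0.51 ± 0.29 SE, adjusted p = 0.326), so its groups overlapped between control 3 and sorted library 1. It was among the most abundant targets, with 31.5 TPM in controls and 23.3 TPM in sorted libraries.

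The oligoadenylate synthases make the second messenger that activates the antiviral nuclease RNase L, and their members differed. OASL, a relative without that enzyme activity, had 32.6 and 38.2 CPM in controls 2 and 3 and 71.8, 79.4 and 59.3 CPM in sorted libraries 1, 2 and 3 (log2 fold change 0.99 ± 0.21 SE, adjusted p = 0.0557). OAS1 had 1.99 and 1.56 CPM in controls 2 and 3 and 4.35, 5.35 and 4.92 CPM in sorted libraries 1, 2 and 3 (log2 fold change 1.46 ± 0.35 SE, adjusted p = 0.0673). OAS2 had 2.64 and 2.11 CPM in controls against 8.41, 5.27 and 4.08 CPM in sorted libraries (log2 fold change 1.32 ± 0.42 SE, adjusted p = 0.119). For these 3 genes every sorted library was above both controls, and the sign held with library size alone and on the TPM scale, there at 0.034, 0.58 and 0.085 on log2(TPM + 1). With all libraries none of the 3 passed edgeR's test, while DESeq2 called OASL and OAS1 (adjusted p = 0.002502 and 0.0128), as did limma-voom (0.0349 and 0.0426). All 3 passed edgeR's test without sorted library 3, at 1.09 (adjusted p = 8.4e-04), 1.45 (adjusted p = 0.0136) and 1.52 (adjusted p = 0.0102). That fit called 15.4% of all genes higher. OAS3, which lies between OAS1 and OAS2 with 5254 and 5267 bases on its sides, had 7.92 and 7.202 CPM in controls against 10.2, 8.68 and 6.05 CPM in sorted libraries (log2 fold change 0.14 ± 0.30 SE, adjusted p = 0.825). Its groups overlapped, and its sign turned with library size alone.

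Of the cytosolic RNA sensors, DHX58 encodes LGP2, an RNA helicase that lacks the signalling domains of its relatives (gene 79132, chromosome 17, 42101411 to 42112714), and had 1.603 and 3.34 CPM in controls 2 and 3 and 8.53, 8.31 and 18.8 CPM in sorted libraries 1, 2 and 3 (log2 fold change 2.26 ± 0.55 SE, adjusted p = 0.0726). It had the largest fold change after EPSTI1 and BST2, the sorted libraries lay apart from the controls, and sorted library 3 was the highest. IFIH1, which encodes the sensor MDA5, had 3.38 and 4.79 CPM in controls against 5.68, 3.19 and 3.25 CPM in sorted libraries (log2 fold change -0.017 ± 0.40 SE, adjusted p = 0.985), with overlapping groups.

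IFI6, a small membrane protein gene, had 12.7 and 12.2 CPM in controls 2 and 3 and 29.03, 18.9 and 52.6 CPM in sorted libraries 1, 2 and 3 (log2 fold change 1.42 ± 0.45 SE, adjusted p = 0.117). All sorted libraries were above the controls, and sorted library 3 was the highest of them. IFI44 had 55.7 and 55.3 CPM in controls against 76.2, 68.3 and 101 CPM in sorted libraries (log2 fold change 0.56 ± 0.22 SE, adjusted p = 0.184), and IFI44L, its neighbour at 3643 bases on chromosome 1, 24.01 and 19.2 CPM in controls against 35, 27.3 and 52.03 CPM in sorted libraries (log2 fold change 0.81 ± 0.32 SE, adjusted p = 0.177). Both had all sorted libraries above the controls in CPM, and both signs turned on log2(TPM + 1), to -0.32 and -0.098. XAF1, an antagonist of the caspase inhibitor XIAP, was low, with 1.9 and 1.81 CPM in controls against 2.56, 2.09 and 3.101 CPM in sorted libraries (log2 fold change 0.47 ± 0.41 SE, adjusted p = 0.521), which were above the controls by small margins. IFI35 had 11.7 and 7.07 CPM in controls against 8.97, 9.45 and 0.756 CPM in sorted libraries (log2 fold change -0.54 ± 0.86 SE, adjusted p = 0.7497). Sorted library 3 held 10 counts of IFI35, while the other sorted libraries lay between the controls. IFI27 was at 6 counts or fewer in every library and was not tested.

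The Mx genes encode dynamin-like GTPases that block virus entry into the nucleus or virus transcription. MX1 had 1.75 and 1.83 CPM in controls against 3.18, 2.31 and 4.61 CPM in sorted libraries (log2 fold change 0.90 ± 0.44 SE, adjusted p = 0.263). MX2, 11164 bases away on chromosome 21, had 3.62 and 2.49 CPM in controls against 7.52, 5.35 and 4.61 CPM in sorted libraries (log2 fold change 0.93 ± 0.37 SE, adjusted p = 0.179). Both were low, with all sorted libraries above the controls in CPM and signs that turned on the TPM scale.

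Guanylate-binding proteins are GTPases that attack pathogen vacuoles, and their 5 genes here lie in a row on chromosome 1. GBP2 had 19.6 and 18.4 CPM in controls against 20.4, 24.9 and 37.1 CPM in sorted libraries (log2 fold change 0.53 ± 0.30 SE, adjusted p = 0.322), and all sorted libraries were above the controls, with a sign that turned on the TPM scale. GBP5 had 1.19 and 0.794 CPM in controls against 1.67, 1.98 and 3.78 CPM in sorted libraries (log2 fold change 1.31 ± 0.58 SE, adjusted p = 0.215), also without overlap. GBP1, the most abundant of the family in controls at 8.56 TPM, had a log2 fold change of 0.25, GBP3 one of 0.51 and GBP4 one of 1.44, with overlapping groups. None of the 5 passed edgeR's test, DESeq2 and limma-voom called 0 as well, and 0 had an unadjusted p under 0.05.

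IFIT proteins bind viral RNA, and their genes sit together on chromosome 10. IFIT3 had 16.4 and 15.3 CPM in controls 2 and 3 and 10.3, 8.498 and 10.8 CPM in sorted libraries 1, 2 and 3 (log2 fold change -0.69 ± 0.23 SE, adjusted p = 0.127). IFIT5 had 49.2 and 49.95 CPM in controls 2 and 3 and 36.8, 39.9 and 32.7 CPM in sorted libraries 1, 2 and 3 (log2 fold change -0.44 ± 0.18 SE, adjusted p = 0.19). For both, all sorted libraries were below the controls. Without sorted library 3, in a fit that called 16.8% of all genes lower, both passed, at -0.76 (adjusted p = 0.0181) and -0.37 (adjusted p = 0.0464). IFIT1, which lies between them, had 8.13 and 7.31 CPM in controls against 7.69, 6.3 and 12.8 CPM in sorted libraries (log2 fold change 0.20 ± 0.36 SE, adjusted p = 0.7802), and IFIT2 5.02 and 4.46 CPM in controls against 6.24, 7.36 and 2.72 CPM in sorted libraries (log2 fold change 0.21 ± 0.45 SE, adjusted p = 0.824). The groups of these latter genes overlapped and their signs turned with library size alone.

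PARP14, a mono-ADP-ribosyltransferase gene, had 78.5 and 83.9 CPM in controls 2 and 3 and 55.3, 55.3 and 43.6 CPM in sorted libraries 1, 2 and 3 (log2 fold change -0.66 ± 0.19 SE, adjusted p = 0.0968). The ubiquitin ligase gene DTX3L had 30.4 and 33.6 CPM in controls against 27.6, 24.9 and 19.7 CPM in sorted libraries (log2 fold change -0.41 ± 0.22 SE, adjusted p = 0.298). Both had all sorted libraries below the controls, and PARP14 passed without sorted library 3, at -0.55 (adjusted p = 0.00653). PARP9, the partner of DTX3L in a protein complex, had 28.6 and 26.4 CPM in controls against 26.02, 27.4 and 22.6 CPM in sorted libraries (log2 fold change -0.12 ± 0.20 SE, adjusted p = 0.758), and its groups overlapped. The gene bodies of PARP9 and DTX3L overlap by 447 bases, and the strand setting of the counting is not given in the sources used here, so reads from the shared stretch could be counted for either.

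SAMD9 and SAMD9L encode related proteins that restrain viral and cellular translation, and they lie 12076 bases apart on chromosome 7. SAMD9 had 94.8 and 96.1 CPM in controls 2 and 3 and 98.1, 19.3 and 20.2 CPM in sorted libraries 1, 2 and 3 (log2 fold change -1.06 ± 0.72 SE, adjusted p = 0.412). SAMD9L had 45.3 and 50.96 CPM in controls 2 and 3 and 35.7, 11.7 and 13.2 CPM in sorted libraries 1, 2 and 3 (log2 fold change -1.25 ± 0.50 SE, adjusted p = 0.1805). The sorted libraries disagreed at both genes. Sorted library 1 was level with the controls for SAMD9 and below them for SAMD9L, and sorted libraries 2 and 3 were far below the controls for both. Without sorted library 1 the log2 fold changes were -2.28 and -1.96 (adjusted p = 0.0696 and 0.0701).

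SP110, a nuclear body gene, had 9.41 and 10.5 CPM in controls 2 and 3 and 6.52, 5.53 and 4.84 CPM in sorted libraries 1, 2 and 3 (log2 fold change -0.82 ± 0.26 SE, adjusted p = 0.1197), with all sorted libraries below the controls. Among the TRIM ubiquitin ligase genes, TRIM22 was the most abundant target in controls at 55.7 TPM and stood at 21.4 TPM in sorted libraries. It had 104 and 106 CPM in controls 2 and 3 and 60.9, 72.2 and 105 CPM in sorted libraries 1, 2 and 3 (log2 fold change -0.40 ± 0.26 SE, adjusted p = 0.398). Sorted library 3 was level with the controls and the other sorted libraries were below them, and without it the log2 fold change was -0.65 (adjusted p = 0.004803). TRIM25, a ubiquitin ligase of antiviral signalling, had 13.2 and 11.8 CPM in controls against 19.8, 17.4 and 6.81 CPM in sorted libraries (log2 fold change 0.23 ± 0.45 SE, adjusted p = 0.803). Here sorted library 3 was the one below the controls, and the log2 fold change without it was 0.57 (adjusted p = 0.04005). TRIM21, a cytosolic antibody receptor gene, had a log2 fold change of -0.28 with overlapping groups.

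The remaining effectors were low. BST2, which tethers budding virus to the cell, had raw counts of 7 and 0 for controls 2 and 3, against 4, 21 and 18 for sorted libraries 1, 2 and 3 (log2 fold change 2.86 ± 1.63 SE, adjusted p = 0.326). In CPM sorted library 1 was barely above control 2, and the fitted change of so low a gene depends on the prior count. The exonuclease gene ISG20 had 1.34 and 0.5203 CPM in controls against 1.56, 2.93 and 1.59 CPM in sorted libraries (log2 fold change 1.13 ± 0.65 SE, adjusted p = 0.3299), with all sorted libraries above the controls by a small margin in sorted library 1. CMPK2, a mitochondrial nucleotide kinase gene, had 12 counts or fewer in every library. RSAD2, which encodes viperin and overlaps CMPK2 by 751 bases, had 0 counts in all 5 libraries. Viperin RNA was therefore not detectable, with up to 3 counts per library allowed.

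Over the 51 tested members, 19 had every sorted library above both controls and 9 had every sorted library below them. These were 37.3% and 17.6% of the members, against 22.7% and 27.7% of all genes tested (50.4% in either direction). Libraries are shared by all members, so these shares describe the members and are no test. Without sorted library 3, 12 of 50 tested members were higher, against 15.4% of all genes in that fit, and 7 lower, against 16.8%. The 12 were IFNGR2, STAT2, JAK1, EPSTI1, DHX58, OAS1, OAS2, OASL, IFI6, IFI44, MX2 and TRIM25, and the 7 were HERC5, IFIT3, IFIT5, PARP14, USP18, SP110 and TRIM22. With all libraries, DESeq2 called 6 members higher (IFNGR2, IFI6, OAS1, OASL, DHX58 and EPSTI1) and 2 lower (HERC5 and PARP14), against 7.51% and 7.34% of all genes. By limma-voom 3 were higher (OAS1, OASL and EPSTI1) and 1 lower (HERC5), against 3.58% and 5.13%.

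**Figure D3:**
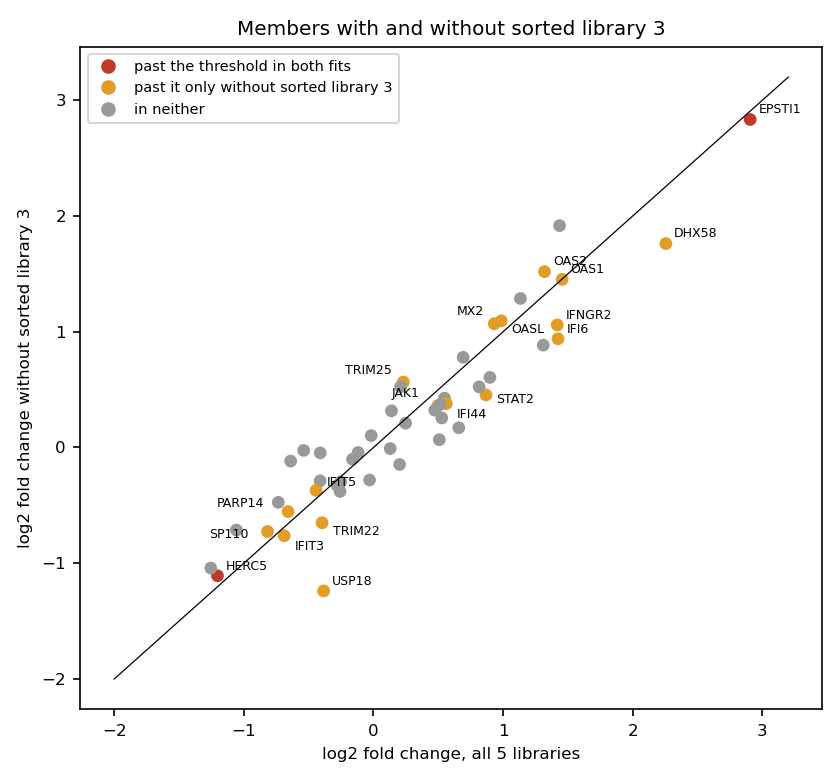
Log2 fold change of 50 members with all 5 libraries (horizontal axis) and without sorted library 3 (vertical axis), with the line of equal values. EPSTI1 and HERC5 are past the threshold in both, 17 further members pass without the library (orange), and USP18 lies farthest below the line with -0.38 and -1.24. The fit without the library called 15.4% of all genes higher and 16.8% lower.

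Targets with a match to the response element lay on both sides of 0. Of the 22 tested targets with an ISRE match, 13 had a fold change above 0 and 9 below, from -1.20 (HERC5) to 2.91 (EPSTI1), with a median of 0.22. The 8 tested targets with a window and no match had 3 above and 5 below, from -1.25 to 1.46, with a median of -0.59. Windows were missing for 9 of the 39 tested targets, among them DHX58, OAS2 and OASL, and no test was made.

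**Figure D4:**
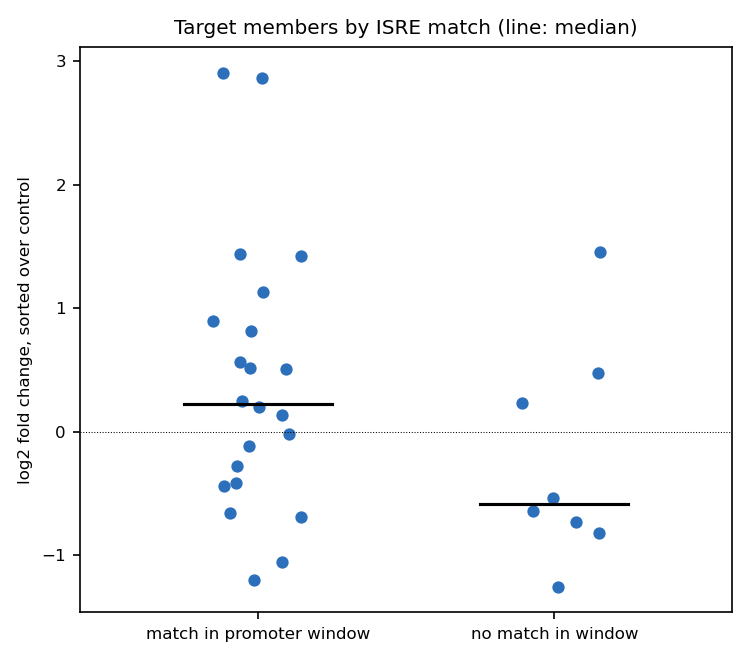
Log2 fold change (sorted over control) of 22 tested target members with an ISRE match in a promoter window and of 8 with a window and no match, 1 point for each gene, with the median as a line. Both groups span 0, with medians of 0.22 and -0.59.

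Of 12 other tested genes of signalling, 1 rose and 0 fell (8.33%, against 4.61% of all genes tested). It was UBA7, the enzyme that activates ISG15 for transfer, with 16.4 and 15.8 CPM in controls 2 and 3 and 40.5, 43.9 and 40.6 CPM in sorted libraries 1, 2 and 3 (log2 fold change 1.37 ± 0.19 SE, adjusted p = 0.02499). Its sorted libraries lay above both controls. The UBA7 call was lost without control 2, control 3, sorted library 1 or sorted library 2 (adjusted p of 0.0785 to 0.318) and in 4 of 8 other alternatives, among them library size alone (0.105) and log2(TPM + 1) (0.532), with the same sign in all. The abundant SOCS3, another feedback inhibitor, stood at a log2 change of 0.45 (adjusted p = 0.233), and IL10RB, a chain of the lambda interferon receptor, 0.57 (adjusted p = 0.219).

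Of 13 tested genes of nucleic acid sensing, 0 rose and 1 fell (7.69%). Their median log2 fold change was -0.80, with 11 below 0, against -0.0017 over all genes tested. AIM2, the sensor of cytosolic DNA, fell, with 37.5 and 35.8 CPM in controls 2 and 3 and 15.8, 14.5 and 14.1 CPM in sorted libraries 1, 2 and 3 (log2 fold change -1.31 ± 0.19 SE, adjusted p = 0.0252). TANK, an adaptor of the kinase TBK1, had 51.8 and 52.3 CPM in controls against 33.4, 26.3 and 24.7 CPM in sorted libraries (log2 fold change -0.89 ± 0.20 SE, adjusted p = 0.0633), without overlap, and TBK1 itself had -0.026 (adjusted p = 0.954). CGAS and ZBP1 had 0 counts in all libraries, and STING1 had at most 8. In this list 4 genes were lower (30.8%, against 13.6% of all genes) and 0 higher (against 12.2%) at an unadjusted p under 0.05. DESeq2 called 3 of the 13 lower and 0 higher, against 7.34% and 7.51% of all genes. By limma-voom 2 were lower and 0 higher, against 5.13% and 3.58%.

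Of 44 further tested targets, 3 rose and 1 fell (9.09%, against 4.61% of all genes tested), with a median of 0.19, and UBA7 is counted here too. CD38, an ectoenzyme that uses NAD, had 1.37 and 1.51 CPM in controls against 6.91, 6.56 and 9.68 CPM in sorted libraries (log2 fold change 2.42 ± 0.35 SE, adjusted p = 0.0251). LGALS3BP, a secreted galectin-binding protein gene, had 84.4 and 100.3 CPM in controls against 198, 235 and 257 CPM in sorted libraries (log2 fold change 1.32 ± 0.21 SE, adjusted p = 0.0305). Both rose with all sorted libraries above the controls. PNPT1, a mitochondrial exoribonuclease gene, fell, with 61.3 and 69.2 CPM in controls against 25.7, 31.03 and 20.4 CPM in sorted libraries (log2 fold change -1.34 ± 0.23 SE, adjusted p = 0.0352). AIM2, CD38, LGALS3BP and PNPT1 kept their sign in every alternative, and each kept its call in 1 of 5 fits without a library, that without sorted library 3. Of 8 other alternatives, AIM2 and CD38 were called in 6 each, PNPT1 in 5 and LGALS3BP in 4.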

How the data were processed

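For every gene the deposited table holds 3 kinds of value in each library. Per the file headers these are read counts, FPKM and TPM. Estimated counts were deposited by the authors as whole numbers, FPKM and TPM were computed and deposited by the authors, and FPKM served only to choose which genes to name. Per the submitters' processing notes, the build was GRCh38 and StringTie was used, without a role or version. The aligner, strand setting and treatment of multiply mapped reads are unknown: they were not given in the sources used here. Per the labels' protocols, TRIzol RNA went into a stranded total RNA kit. Genes were matched by identifier to RefSeq (GRCh38.p14) for positions (44694 of 46427, and 53 of 53 members).

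Counts were filtered with filterByExpr (16304 genes left), scaled with TMM and tested with edgeR 4.0.16 in R 4.3.3 by the robust quasi-likelihood F test, sorted against control, with no covariate. P-values were adjusted by Benjamini and Hochberg's method across the 16304 genes, and 0.05 was the threshold. Each SE was derived from the log2 fold change and its F statistic. Alternatives were RLE factors, library size alone, no filter, DESeq2 1.42.0, limma-voom and limma-trend (limma 3.58.1) on the authors' TPM with a pseudocount of 1 or 0.1, a replicate block, and each library left out. Members, lists and the naming rule were chosen with earlier results of these data known. All members could be named; values in each library are given for members past the threshold or without overlap between groups, and at most 4 members of other lists were named by adjusted p, or the 2 most abundant where fewer than 2 passed. The lowest chi-square per degree of freedom between libraries was 20.0, so no library was a copy of another. A count of 0 was taken to allow 3 counts, and such floors cover counting error only. On simulated counts for this comparison (16304 genes, 200 changed), edgeR recovered 14.3% of genes changed 2-fold, 67.6% changed 4-fold and 80.6% changed 8-fold, with 5 false calls. The simulated spread followed a fitted trend over expression level and was alike in all libraries. In the data sorted library 3 stood apart and genes differ in spread, so these rates may not hold for the data.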

Additional observations from a re-analysis of the deposited data

How the results depend on the processing

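Fold changes are relative to TMM scaling. With library size alone, 113 genes were higher and 314 lower, 0 targets were lower, and the medians of signalling members and targets were -0.12 and -0.11. DESeq2 called 1303 genes higher and 1274 lower, 1 signalling member higher, and 5 targets higher and 2 lower. By limma-voom 583 genes were higher and 836 lower, with 3 targets higher. On log2(TPM + 1), with a mean TPM of at least 0.5, 70 genes were higher and 1112 lower, 0 targets higher, and the medians were -0.51 and -0.50. On log2(TPM + 0.1) the counts were 15 and 26, with 0 targets higher and 0 lower and medians of -0.68 and -0.79. Without a filter on low counts 1 signalling member and 2 targets were higher. RLE factors kept every count within 1.5 times and every sign. The cause of these differences was not tested.

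Leaving out each library in turn gave 0 to 2477 genes higher and 0 to 2695 lower, 0 to 3 signalling members higher, 0 to 9 targets higher and 0 to 7 lower, and medians of 0.081 to 0.45 for signalling members and 0.14 to 0.30 for targets. The highest counts came without sorted library 3. At an unadjusted p under 0.05, edgeR still had 835 to 1810 genes higher in the other fits, and 1 control left alone is assumed to vary like the sorted libraries. Signs turned in some of these fits, with log2 fold changes of -0.0093 to 0.36 for IRF7, -0.28 to 0.12 for IRF9, -0.15 to 0.41 for IFIT1, -0.066 to 0.52 for IFIT2, -0.35 to 0.25 for IFIH1, -0.039 to 0.32 for OAS3 and -0.046 to 0.57 for TRIM25.

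With the replicate number as a block, 192 genes were higher and 219 lower, with 2 targets higher (EPSTI1 and DHX58) and 2 lower (SAMD9 and SAMD9L), and HERC5 lost its call (adjusted p = 0.0975). UBA7, AIM2, LGALS3BP and PNPT1 lost theirs too (adjusted p of 0.0602 to 0.0793), and CD38 kept it. This block leaves sorted library 1, which shares its number with no control, out of the comparison. Whether libraries of the same number belong together is not stated. Their deviations from the group means correlated at r = 0.06 and 0.08 across genes, against -0.084 to 0.065 for libraries of unlike number. With 2 controls the deviations of control 2 and control 3 are mirror images, so these values cannot decide whether libraries were paired. The block turned signs, to 0.11 for IRF9, -0.057 for IFIT2, -0.057 for OAS3 and -0.19 for TRIM25.

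Signs of members also turned with library size alone, to -0.30 for IRF7, -0.26 for IFIT1, -0.11 for IFIT2, -0.22 for OAS3, -0.15 for GBP1 and -0.085 for TRIM25. On log2(TPM + 1) and log2(TPM + 0.1), in that order, they turned to -0.16 and -0.17 for STAT2, -0.54 and -0.61 for IRF1, -0.48 and -0.75 for IRF7, -0.46 and -0.47 for JAK1, -0.36 and -0.37 for IFNGR1, -0.12 and -0.31 for SOCS1, -0.56 and -0.81 for IFIT1, -0.43 and -0.79 for IFIT2, -0.32 and -0.33 for IFI44, -0.098 and -0.12 for IFI44L, -0.44 and -0.46 for ISG15, -0.029 and -0.068 for MX1, -0.020 and -0.10 for MX2, -0.42 and -0.77 for OAS3, -0.21 and -0.50 for XAF1, -0.60 and -0.68 for GBP1, -0.41 and -0.47 for GBP2, -0.27 and -0.46 for GBP3 and -0.50 and -0.81 for TRIM25. None of these genes had passed the threshold. Of 400 fold changes of members under alternatives other than leaving out a library, 334 kept their sign and side of the threshold, 5 lost and 13 gained a call, and 48 turned.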
